A study of Mus musculus with 6 samples.

Results

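The genes described here are the 2 alpha subunits of the hypoxia-inducible factors that were listed (Hif1a and Epas1), Vhl, which controls their stability, and 7 classic target genes (Vegfa, Egln3, Bnip3, Ndrg1, Adm, Slc2a1 and Ankrd37). They were chosen by name, for their place in the VHL-HIF axis of renal carcinoma and not by a measured value, and make up 10 of the 78298 genes in the count table. Earlier results of these data were known when they were chosen. RNA sequencing compared RENCA cells, a mouse renal adenocarcinoma line, that carried a lentivirus with mouse Aqp1 (oe-AQP1, 3 samples) or the matching empty vector (oe-NC, 3 samples), both 2 weeks after transduction. Puromycin (2 μg/mL, 14 days) had been used to select both groups. The culture medium held penicillin and streptomycin, and no further treatment is named for either group. The ubiquitin C promoter drove the Aqp1 insert, the vector held no fluorescent reporter, and each group is a puromycin-resistant population, so the share of cells that express the insert is not known from these data. The labels place all 6 samples in 1 batch and name no hypoxic culture.

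The hypoxia-inducible factors (HIFs) are transcription factors made of an oxygen-regulated alpha subunit, HIF-1α (Hif1a) or HIF-2α (Epas1), and the constitutive partner ARNT. When oxygen is present, prolyl hydroxylases of the EGLN family mark the alpha subunit, the VHL ubiquitin ligase binds it and the proteasome degrades it, so that HIF-1α is controlled largely as a protein. In clear cell renal carcinoma VHL is commonly lost and HIF targets for glucose uptake, glycolysis, angiogenesis and mitophagy are switched on without hypoxia. HIF dimers bind a short core, ACGTG or GCGTG, in promoters and enhancers.

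Promoter sequences are shown first because they carry the letters that HIF reads. RefSeq promoter windows (GRCm38.p6) were matched by symbol for 8 of the 10 genes, all but Epas1 and Ndrg1, and the 250 bases before each start were searched on both strands for ACGTG and GCGTG. The palindrome CACGTG counts as ACGTG on both strands. Of 32851 such windows over all genes, 16.6% held ACGTG, 28.2% held GCGTG and 38.6% held either. In the 12969 windows of genes with enough counts to test, the shares were higher, at 21.4%, 43.3% and 54.4%. Bnip3 had 5 matches, Ankrd37 4, Hif1a 3, Slc2a1 and Adm 2 each, Egln3 1 and Vhl 0. Vegfa had 0 in the window at its main start and 2 in the window of an internal start, and those 2 lie in a coding exon at chr17:46336287-46336316. Each line below gives 30 bases, 5′ to 3′ on the strand of the gene, with the matched letters in capitals (CACGC is GCGTG, and CACGT is ACGTG, read on the other strand). Their positions are those of an exact match of the window to GRCm39.
Bnip3, minus strand, chr7:138511326-138511355: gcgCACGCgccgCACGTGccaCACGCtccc
Ankrd37, minus strand, chr8:46453024-46453053: ccttcactgcgCACGCGTGctgcggccgcc
Ankrd37, minus strand, chr8:46452876-46452905: cagtgtttgggtACGTGaggccgcagcggg
Slc2a1, plus strand, chr4:118965894-118965923: gtcccgccccggACGTGctccccaggcccc
Adm, plus strand, chr7:110226798-110226827: ggcaaatctgacCACGCccaccgtccgccc
Hif1a, plus strand, chr12:73954494-73954523: cacacagacaagCACGTGagcggggcagct
The Bnip3 stretch holds 4 of that gene's 5 matches and lies outside any gene model of GENCODE M39. The first Ankrd37 stretch lies in introns of Ankrd37 and of Lrp2bp on the other strand, and the second reaches from the 5′ UTR into coding sequence of Ankrd37. The Slc2a1 stretch spans the annotated start of its 5′ UTR, the Adm stretch lies in an exon of the antisense gene model Gm72687, and the Hif1a stretch lies in an intron of Hif1a, since some of its models start further upstream. A match is a description of letters, and binding was not measured.

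The samples held 18385714 to 21920899 expected counts each. Aqp1 had 7713, 8545 and 7838 counts in oe-AQP1 samples 1 to 3 against 41, 25 and 45 in the oe-NC samples, so all 6 libraries matched their labels. Sample 1 of oe-NC stood apart. A chi-square comparison of counts gave 9.47 and 11.1 per gene between it and the other oe-NC samples, against 1.71 to 2.04 within every other pair of a group, and values without it are given beside the results that it changed. Of the renal markers, Pax8 had 3054 to 3630 counts and Pax2 700 to 1097, while Epcam had 0 in every sample. Of the markers of other cell types, Ptprc (at most 3 counts), Adgre1 (0 in every sample) and Cdh5 (at most 1 count) were at or near 0. Others were counted: Cd68 had 576 to 777 counts, Pecam1 13 to 35, Vwf 15 to 27, and Csf1r 56 to 76 in oe-AQP1 against 173 to 202 in oe-NC (log2FC = -1.51, FDR = 1.31e-05). The 8 tubule and epithelial markers were summed as CPM (library-scaled counts, with TMM factors). Their sum ran from 785 to 814 in oe-AQP1 and from 955 to 1057 in oe-NC. Of the 7 tested, 5 fell, beside 16.6% of all genes tested. The summed levels were 36.2 to 38.9 against 38.5 to 41.7 for the 7 leukocyte markers, 2.02 to 2.87 against 1.86 to 2.39 for the 4 endothelial markers and 56.0 to 58.0 against 51.0 to 65.0 for the 5 fibroblast markers. Few of these were tested: of 2 leukocyte markers Csf1r fell, of 2 endothelial markers none passed, and of 2 fibroblast markers Col1a1 fell (-0.73, FDR = 0.00238) and Pdgfrb rose (0.34, FDR = 0.00284). Whether these marker differences bear on the HIF target values was not tested. In bulk RNA, fewer cells that express a gene and less RNA of that gene per cell cannot be told apart.

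Among the listed genes, HIF targets were lower in oe-AQP1 cells while the mRNA of Hif1a and Vhl lay close to the oe-NC level. Bnip3, Ankrd37, Slc2a1, Ndrg1, Adm and Vegfa fell, by 1.40 to 0.30 on the log2 scale, and none rose. That is 6 of the 8 genes with enough counts to test, by limma-voom with a Benjamini-Hochberg adjusted p (FDR) below 0.05 over 15522 genes. In the same test 32.5% of all genes passed, 16.6% as lower and 16.0% as higher in oe-AQP1. The median log2 fold change (log2FC) of the 8 was -0.55, beside 0.00 over all genes tested. Bnip3 and Ankrd37 also passed the fold threshold of the study (an absolute log2FC over 1), as did 5.23% of all genes. For the same 6 genes, every oe-AQP1 sample lay below every oe-NC sample in CPM, a pattern found in 23.8% of all genes tested. The calls and this separation come from the same counts, so the separation is not separate evidence. Exact two-sided permutation of the samples gave p = 0.1 for each of the 6, which is the smallest value that 3 against 3 samples allow.

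**Figure D1:**
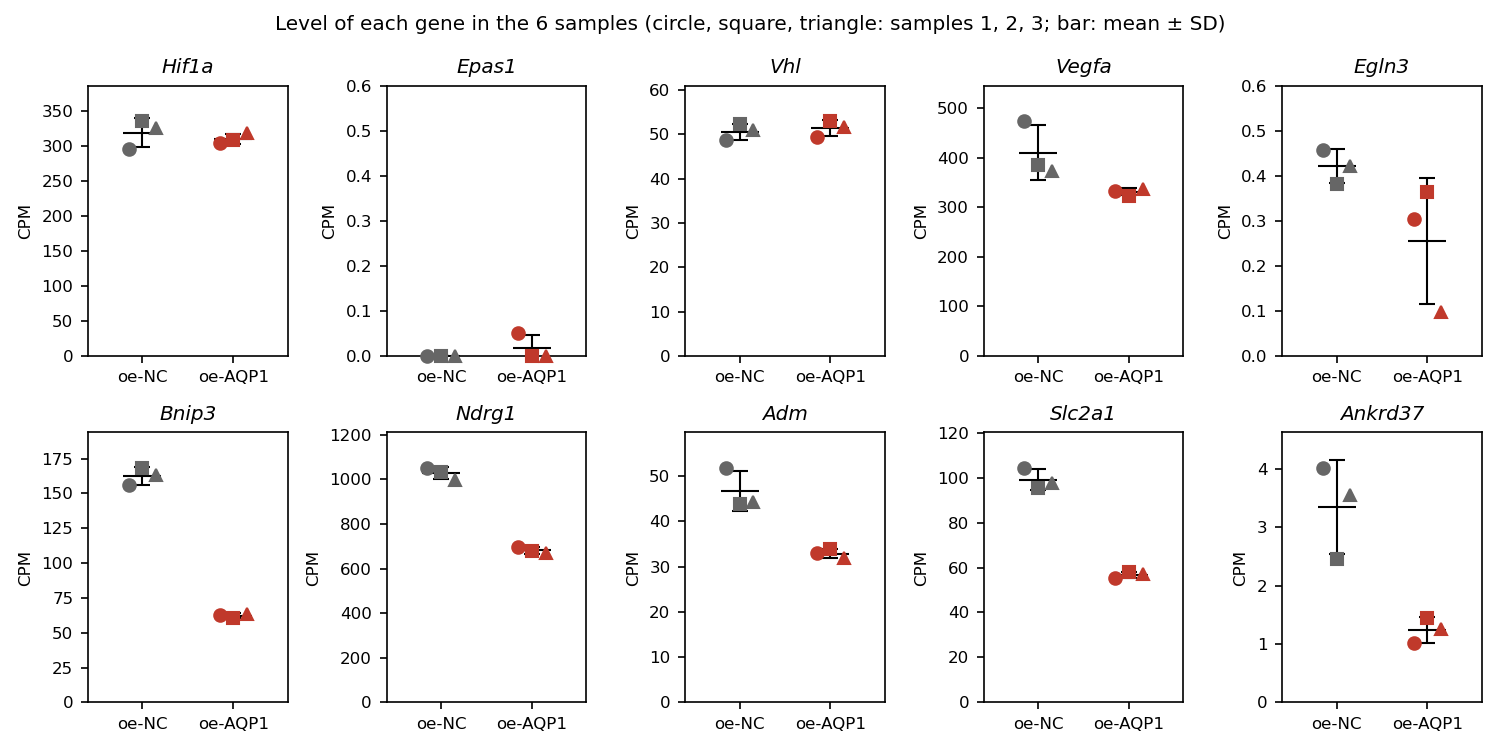
CPM of each of the 10 genes (vertical axes, linear from 0, scaled per gene) in the oe-NC (grey) and oe-AQP1 (red) samples, with circle, square and triangle for samples 1, 2 and 3 and bars for mean ± SD. The groups separate fully for Bnip3 (60.3 to 63.6 against 156 to 169 CPM) and overlap for Hif1a and Vhl.

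Hif1a (ENSMUSG00000021109, chr12:73948149-73996321, plus strand) encodes the HIF-1α subunit. Its level was 304, 310 and 319 CPM in oe-AQP1 samples 1, 2 and 3 and 296, 336 and 327 CPM in oe-NC samples 1, 2 and 3. The groups overlapped, with the lowest value in oe-NC sample 1 and the highest in oe-NC sample 2. The log2FC was -0.04 (SE 0.05, 95% interval -0.14 to 0.07, FDR = 0.603, limma-voom). Without oe-NC sample 1 it was -0.09 and passed the test (FDR = 0.00418), so the call depends on that library, at a small difference either way. The exact permutation p was 0.6. Gm15283, which overlaps Hif1a on the other strand, had 14 to 36 counts beside 5809 to 6960 for Hif1a.

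Vhl (ENSMUSG00000033933, chr6:113600920-113608599, plus strand) encodes the substrate receptor of the ubiquitin ligase that removes HIF alpha subunits. It had 49.5, 53.0 and 51.7 CPM in the oe-AQP1 samples and 48.7, 52.3 and 50.9 CPM in the oe-NC samples. The values interleaved, and in both groups sample 1 was lowest. The log2FC was 0.02 (SE 0.05, 95% interval -0.09 to 0.14, FDR = 0.758, limma-voom), and the exact permutation p was 0.6. The mRNA level says nothing of mutations in the gene, which were not analysed here.

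Epas1 (ENSMUSG00000024140, chr17:87061087-87140838, plus strand), the HIF-2α gene, had 1 count in oe-AQP1 sample 1 and 0 in each of the other 5 libraries. A count of 0 allows up to 3 counts, which is 0.136 to 0.164 CPM depending on the library. HIF-2α mRNA was therefore not detectable above that level in the 5 libraries with 0 (counting error only). The limit is somewhat higher for oe-AQP1 sample 1, where the 1 count was 0.0506 CPM. No fold change is given.

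Bnip3 (ENSMUSG00000078566, chr7:138490690-138511253, minus strand), a mitophagy receptor of the outer mitochondrial membrane, had the smallest FDR of the 8 tested. It had 63.0, 60.3 and 63.6 CPM in oe-AQP1 samples and 156, 169 and 163 CPM in oe-NC samples, from 1246 to 1327 against 3066 to 3473 counts. The lowest oe-NC value came from sample 1 and was still well over the highest oe-AQP1 value. Mean levels were 62.3 ± 1.72 and 163 ± 6.17 CPM (SD, n = 3), so oe-AQP1 cells held 38.3% of the oe-NC level. The log2FC was -1.38 (SE 0.05, 95% interval -1.48 to -1.28, FDR = 5.84e-09, limma-voom).

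Ankrd37 (ENSMUSG00000050914, chr8:46449939-46458744, minus strand), an ankyrin repeat gene known as a HIF-1 target, had a log2FC close to that of Bnip3 at a far lower level. Its values were 1.01, 1.46 and 1.26 CPM in oe-AQP1 and 4.02, 2.46 and 3.57 CPM in oe-NC, from 20, 32 and 26 counts against 79, 45 and 76. The groups did not overlap, but oe-NC sample 2 lay nearer to the oe-AQP1 samples than the other oe-NC samples did. The mean was 1.24 ± 0.223 against 3.35 ± 0.803 CPM (SD, n = 3), 37.1% of the oe-NC level. The log2FC was -1.40, and with so few reads its 95% interval ran from -1.97 to -0.84 (FDR = 0.00200, limma-voom). Exons of Ankrd37 overlap those of Ufsp2 on the other strand, which had 1419 to 1855 counts, and of Lrp2bp, which had 11 to 20. Whether strand was used in counting is not given in the sources used here, so reads of these genes cannot be told apart with certainty.

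Slc2a1 (ENSMUSG00000028645, chr4:118965908-118996365, plus strand) encodes the glucose transporter GLUT1. Its level was 55.3, 57.9 and 57.2 CPM in oe-AQP1 samples and 104, 95.4 and 97.4 CPM in oe-NC samples. Sample 1 of oe-NC was the highest, and the gap between the groups was many times the spread inside either. The mean of 56.8 ± 1.36 CPM was 57.3% of the oe-NC mean of 99.1 ± 4.71 CPM (SD, n = 3), with log2FC = -0.80 (SE 0.05, FDR = 9.14e-07, limma-voom).

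Ndrg1 (ENSMUSG00000005125, chr15:66801166-66841835, minus strand), a stress-responsive gene induced by hypoxia, was the most abundant of the 10. It had 696, 679 and 668 CPM in oe-AQP1 samples and 1052, 1032 and 998 CPM in oe-NC samples, with no overlap and a narrow range in each group. Its mean fell from 1027 ± 27.3 to 681 ± 13.7 CPM (SD, n = 3), to 66.3% of the oe-NC level, with log2FC = -0.59 (SE 0.03, FDR = 4.23e-07, limma-voom).

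The secreted factors had the smallest fitted decreases of the 6, though their difference from the other genes was not tested. Adm (ENSMUSG00000030790, chr7:110226858-110229027, plus strand), which encodes the vasodilator peptide adrenomedullin, had 33.0, 33.9 and 31.9 CPM in oe-AQP1 samples and 51.9, 43.9 and 44.3 CPM in oe-NC samples. Samples 2 and 3 of oe-NC lay close together and sample 1 above them. The oe-AQP1 mean was 70.5% of the oe-NC mean, with log2FC = -0.50 (SE 0.07, FDR = 4.66e-04, limma-voom). Counts of Adm were not whole numbers in any of the 6 samples, which can arise when reads are split between genes, and the overlapping antisense model Gm72687 had 9 to 26 counts.

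Vegfa (ENSMUSG00000023951, chr17:46327919-46343309, minus strand), the main angiogenic growth factor of the axis, had 333, 323 and 338 CPM in oe-AQP1 samples and 474, 385 and 374 CPM in oe-NC samples. The groups did not overlap, and oe-NC sample 1 was far above every other sample. The means were 331 ± 7.35 and 411 ± 55.1 CPM (SD, n = 3) and the log2FC was -0.30 (SE 0.08, 95% interval -0.47 to -0.13, FDR = 0.0130, limma-voom). Without oe-NC sample 1 the log2FC was -0.19 with a smaller error and still passed (FDR = 8.03e-07). Without oe-AQP1 sample 2 it was -0.28 and did not pass (FDR = 0.0592), and Vegfa was the only one of the 6 to lose its call under any of the 16 alternatives.

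Egln3 (ENSMUSG00000035105, chr12:54225767-54250673, minus strand), the prolyl hydroxylase PHD3 and itself a HIF target, was near the detection limit. It had 6, 8 and 2 counts in oe-AQP1 samples and 9, 7 and 9 in oe-NC samples, too few to pass the filter. As CPM the values were 0.304, 0.364 and 0.0973 against 0.459, 0.383 and 0.422. The groups did not overlap in CPM, with oe-AQP1 sample 2 just below oe-NC sample 2. In the fit without a low-count filter Egln3 did not pass (log2FC = -0.85, FDR = 0.345).

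Leaving out oe-NC sample 1 changed sizes more than directions. Bnip3 was at log2FC = -1.41, Slc2a1 at -0.76, Ndrg1 at -0.57, Adm at -0.42 and Ankrd37 at -1.27, and each passed the test. With Hif1a added, 7 of the 8 were then called lower, while the share of all genes called lower rose from 16.6% to 20.7%.

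**Figure D2:**
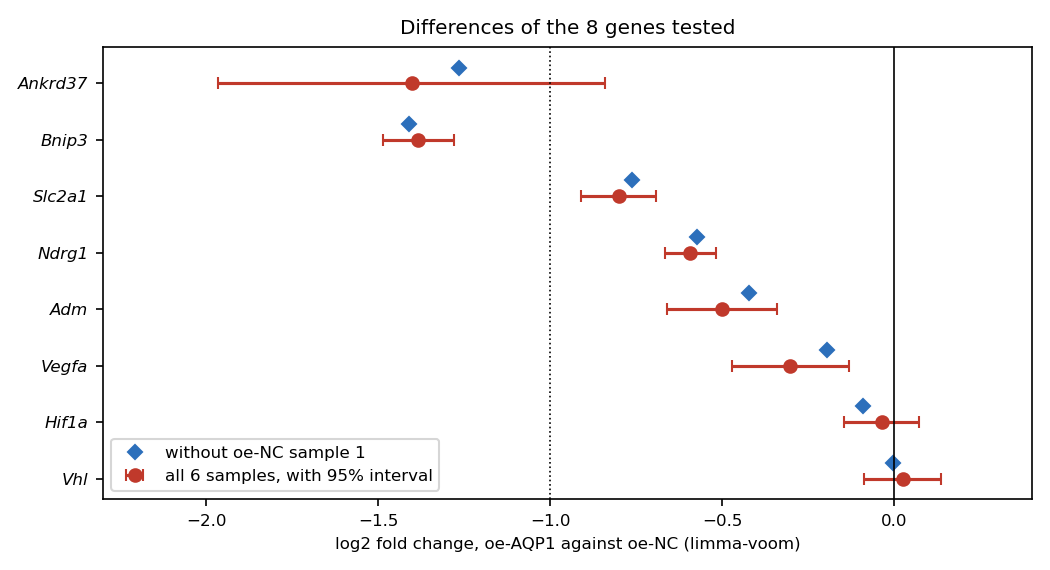
Log2FC between the groups (horizontal axis, negative where oe-AQP1 is lower) for the 8 genes tested, from all 6 samples (red, bars: 95% interval) and without oe-NC sample 1 (blue diamonds), with the fold threshold of the study dotted at -1. Bnip3 has a narrow interval from -1.48 to -1.28, Ankrd37 a wide one from -1.97 to -0.84, and those of Hif1a and Vhl span 0.

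Levels of different genes were compared as TPM, computed from the counts and the summed exon length of each gene. In oe-NC cells the order was Ndrg1 (533 ± 27.6 TPM, SD, n = 3), Vegfa (372 ± 60.2), Hif1a (148 ± 6.36), Bnip3 (146 ± 3.36), Adm (111 ± 13.8), Slc2a1 (82.0 ± 6.03), Vhl (47.0 ± 0.907), Ankrd37 (6.95 ± 1.79) and Egln3 (0.608 ± 0.0681). Only Hif1a and Bnip3 had overlapping sample values among neighbours in this order. In oe-AQP1 cells Hif1a was at 150 ± 4.06 TPM, while Bnip3 was at 58.1 ± 1.59 TPM, below Adm at 81.3 ± 2.43 TPM. Slc2a1 (48.8 ± 1.37 TPM) then overlapped Vhl (49.6 ± 1.91 TPM). Ndrg1 at 367 ± 5.74 TPM and Vegfa at 310 ± 7.02 TPM stayed the most abundant.

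**Figure D3:**
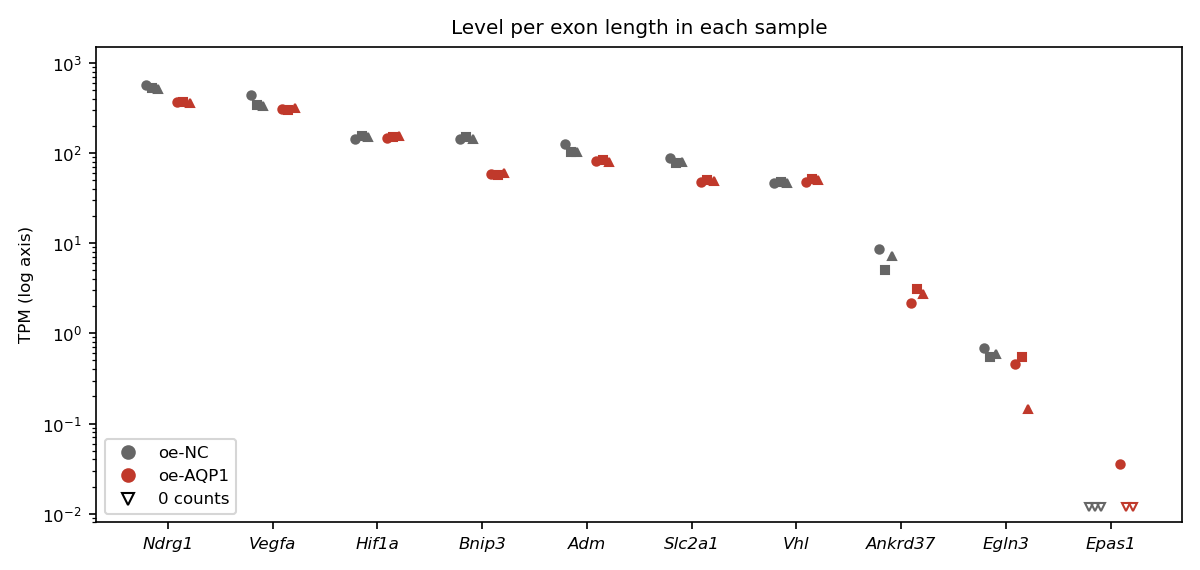
TPM (log axis) of each gene in each sample, ordered by the oe-NC mean, with oe-NC in grey, oe-AQP1 in red and open triangles for 0 counts. Bnip3 drops from 146 TPM, beside Hif1a, to 58.1 TPM, and Ankrd37 and Egln3 lie far below the other genes.

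The other genes of the pathway were taken from lists by role that hold 81 genes with the 10 included. These lists were also made with earlier results of these data known. Their shares beside those of all genes are therefore a description and not a test. Of the 66 tested, 37 fell (56.1%, beside 16.6% of all genes) and 5 rose (7.58%, beside 16.0%), and the median log2FC was -0.30. Without the 8 genes described above, 31 of 58 fell and 5 rose, with a median of -0.27. Leaving out oe-NC sample 1 gave 41 lower and 7 higher of the full lists, where 20.7% of all genes were called lower and 19.4% higher. The decreases were mostly in glycolysis and in mitochondrial and stress targets, and the subunits and the degradation machinery had few.

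**Figure D4:**
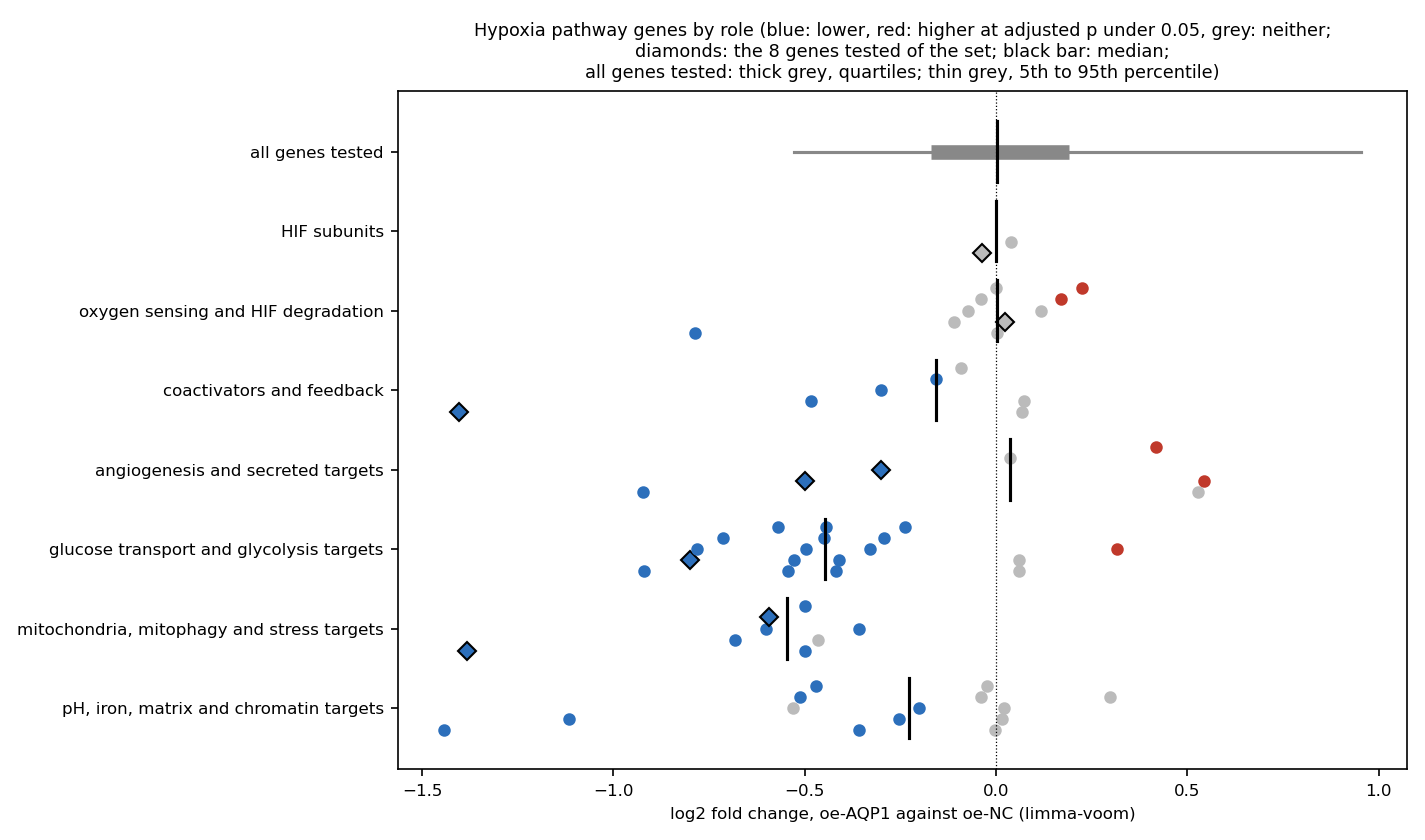
Log2 fold change (horizontal axis) of each pathway gene tested, by role, with blue for genes that fell, red for genes that rose, grey for neither, diamonds for the 8 genes described singly and black bars for medians; the top row gives quartiles and the 5th to 95th percentile of all genes tested. The medians are -0.45 for glucose transport and glycolysis and -0.55 for mitochondria, mitophagy and stress, beside 0.00 for all genes tested.

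Of the 5 HIF subunit genes only Hif1a and Arnt were tested, and neither passed in the fit of all samples. Arnt, the shared partner, had log2FC = 0.04 (FDR = 0.513). Hif3a had at most 1 count and Arnt2 1 to 10 counts. Of 10 genes for oxygen sensing and HIF degradation that were tested, Egln1 fell and 2 rose, shares of 10% and 20% that lie near those of all genes (16.6% and 16.0%). Egln1 (PHD2, the main HIF prolyl hydroxylase and itself a HIF target) had 1080, 1271 and 1178 counts in oe-AQP1 against 2033, 1827 and 1921 in oe-NC, with log2FC = -0.79 (SE 0.06, FDR = 4.55e-06, limma-voom). Every oe-NC sample was far above every oe-AQP1 sample. Hif1an, the asparaginyl hydroxylase that blocks HIF coactivators, rose by 0.17 (FDR = 0.0135) and Siah1a, a ligase for the prolyl hydroxylases, by 0.23 (FDR = 0.0401). Both of these calls were lost under some alternatives, with FDR up to 0.0660 for Hif1an and 0.138 for Siah1a. The log2FC was 0.00 for Egln2, -0.04 for Siah2, and -0.11 for Cul2, -0.07 for Elob, 0.12 for Eloc and -0.00 for Rbx1, which form the ligase with VHL, and none of these passed. Cul2, Elob and Rbx1 passed as lower without oe-NC sample 1, with log2FC = -0.14, -0.16 and -0.07, which made 4 lower and 1 higher.

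Among 7 coactivator and feedback genes, 4 fell and none rose. The background for this list and the role lists that follow is 16.6% of all genes tested lower and 16.0% higher. Besides Ankrd37 these were Mxi1, a MYC antagonist (log2FC = -0.48, FDR = 9.90e-05), and the repressors Bhlhe41 (-0.30, FDR = 0.00337) and Bhlhe40 (-0.16, FDR = 0.0297). The coactivator genes Crebbp and Ep300 had log2FC = 0.07 each and did not pass, but without oe-NC sample 1 both were called higher (0.13 each, FDR = 0.0137 and 4.73e-04), and Ep300 also with sample quality weights (0.12, FDR = 0.00807). Bhlhe40 was not among the genes the naming rule chose.

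Angiogenic and secreted targets moved both ways, with 3 lower and 2 higher of 7 tested. Adm and Vegfa, described above, were among those that fell. Angptl4, a lipase inhibitor, rose from 271, 245 and 242 CPM in oe-NC to 362, 371 and 369 CPM in oe-AQP1 (log2FC = 0.54, FDR = 9.98e-06, limma-voom). Its groups did not overlap. Edn1, which encodes the vasoconstrictor endothelin-1, rose by 0.42 (FDR = 0.0399), and this call was lost under some alternatives (FDR up to 0.151). The median of the list was 0.04.

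Glucose transport and glycolysis gave 15 lower and 1 higher of 18 tested, with a median log2FC of -0.45. Ldha, which makes lactate, fell from 954, 948 and 968 CPM in oe-NC to 590, 579 and 581 CPM in oe-AQP1 (log2FC = -0.71, SE 0.03, FDR = 3.41e-08, limma-voom). Pgk1, a kinase of lower glycolysis, fell from 728, 768 and 756 CPM to 512, 527 and 521 CPM (log2FC = -0.53, FDR = 1.09e-06). Both were separated in every sample, as was Slc2a1 above. Pfkfb3, which makes the allosteric activator of phosphofructokinase, rose by 0.32 (FDR = 3.94e-04), and Hk2 (0.06) and Pfkfb4 (0.06) did not pass. Counts of Gapdh, Pgam1, Eno1, Pkm and Pfkp were not whole numbers in any sample, so they may share reads with near-identical copies and their values are uncertain. Slc2a3, the neuronal glucose transporter gene, and Slc16a3, a lactate exporter gene, had at most 4 and at most 8 counts.

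Mitochondrial, mitophagy and stress targets had 7 lower and none higher of 8 tested, with a median of -0.55. Ak4, dropped by the filter at 1 to 17 counts, was called higher in some other fits, and 1 of the list was then higher. After Bnip3 and Ndrg1, the smallest FDR belonged to Bnip3l, a paralog of Bnip3, which fell from 125, 132 and 136 CPM to 87.8, 85.7 and 85.5 CPM (log2FC = -0.60, FDR = 4.20e-06, limma-voom). The targets for pH, iron, matrix and chromatin had 7 lower and none higher of 14, with a median of -0.23. Lox, the collagen crosslinking oxidase, fell from 41.6, 44.0 and 44.4 CPM to 19.1, 20.0 and 20.9 CPM (log2FC = -1.12, FDR = 3.33e-07). Nos2, the inducible nitric oxide synthase, fell from 264, 241 and 285 counts to 96, 98 and 112 (log2FC = -1.44, FDR = 2.62e-06), and Car12, a membrane carbonic anhydrase, had log2FC = -0.36 (FDR = 4.54e-05). The other carbonic anhydrase gene, Car9, had 7 to 26 counts and a log2FC of -0.53 that did not pass (FDR = 0.420), and Ccnd1, a HIF-2 target in renal carcinoma, had a log2FC of -0.00.

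In the gene sets of the deposited annotation the medians lay nearer to 0. Of 86 tested genes of the KEGG HIF-1 signaling pathway, 35 fell (40.7%) and 8 rose (9.30%; median -0.10), and outside the lists above 19 of 55 fell and 6 rose (median -0.07). Of 154 tested genes of the GO terms for response to hypoxia, 54 fell (35.1%) and 18 rose (11.7%; median -0.11), and outside the lists 41 of 133 fell and 17 rose (median -0.10). Over all genes 16.6% fell and 16.0% rose. Without oe-NC sample 1 the counts were 41 lower and 12 higher for the KEGG set and 61 lower and 30 higher for the GO terms. In that fit 20.7% of all genes were lower and 19.4% higher. Sample quality weights gave 29 higher for the GO terms, in a fit where 6430 of all genes passed, against 5050 in the main fit. The extremes of the KEGG set were Nos2 and Il6, an inflammatory cytokine gene with 43, 43 and 41 counts in oe-AQP1 and 1, 1 and 0 in oe-NC, for which no fold change is given.

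Either HIF core was found in 34 of the 43 promoter windows (79.1%) of pathway genes that fell and in 17 of the 26 (65.4%) of tested pathway genes that did not fall, beside 54.4% of the 12969 windows of all genes tested. A gene can have more than 1 window. The 2 sets also differ in role: of the 37 pathway genes that fell, 32 came from the lists of targets. Shares were not compared within a role or at matched GC content, and the difference was not tested. Of the listed genes, Bnip3, Ankrd37, Slc2a1 and Adm, which fell, had the core matches shown above in their windows before RefSeq starts. A RefSeq start can lie inside a gene model, as for Ankrd37. Hif1a also had matches in its window and was not called in the fit of all samples. Egln3 had 1 match and was not tested in that fit. Vegfa fell with 0 matches at its main start, and Ndrg1 fell but had no window to search. Vhl had 0 matches and was not called.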

How the data were processed

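Total RNA was sequenced paired-end from 3 oe-AQP1 and 3 oe-NC samples, described as biological replicates. If they are not separate cultures, p-values measure only technical spread. The authors deposited expected counts per gene, not scaled between samples, which can be fractional. Their group means were not used. The paper gives GRCm39 as the genome, whereas the submitters' processing notes name GRCm38 and mm10 with fastp, HISAT2, Subread and featureCounts. Of 78298 gene identifiers, 78168 were found in GENCODE M39 (GRCm39), the source of positions and lengths. Rows without a symbol (27.95%) stayed in the fit.

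Counts were rounded, filtered with filterByExpr, scaled by TMM and compared by limma-voom (limma 3.58.1, edgeR 4.0.16, R 4.3.3) with Benjamini-Hochberg adjustment over 15522 genes. A gene was called at an adjusted p under 0.05, and the fold threshold was an absolute log2FC over 1. CPM used TMM-scaled totals and TPM the union of exons. Single genes were also tested by exact permutation of mean log2(CPM + 0.5). The limma-voom, edgeR and DESeq2 fits were also run on simulated counts. Those counts had an even spread and no outlying sample, so that check does not cover the effect of oe-NC sample 1. Totals of 18385714 to 21920899 counts put 3 counts at 0.136 to 0.164 CPM, and such floors cover counting error only.

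The genes, lists and tests were chosen with earlier results of these data known. Genes were named by a rule: the 10 listed, Aqp1, all tested subunit and oxygen sensing genes, up to 3 genes per direction with the smallest FDR in each other list, and the extremes of the KEGG set. One gene that the rule chose is not reported here. Others named, such as Bhlhe40, Car9 and Hk2, were chosen after their values were seen. The alternatives comprised the quasi-likelihood test of edgeR, DESeq2 1.42.0, sample quality weights, 3 other scalings, unrounded counts, 2 other filters, a block for the sample number, each sample left out, and longest-transcript lengths.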

Additional observations from a re-analysis of the deposited data

How the results depend on the processing

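Bnip3, Ankrd37, Slc2a1, Ndrg1 and Adm were lower and called under each of the 16 alternatives. Leaving out 1 sample at a time gave log2FC from -1.41 to -1.36 for Bnip3, -1.60 to -1.27 for Ankrd37, -0.83 to -0.76 for Slc2a1, -0.62 to -0.57 for Ndrg1, -0.54 to -0.42 for Adm, -0.37 to -0.19 for Vegfa, -0.0901 to -0.0035 for Hif1a and -0.0029 to 0.0498 for Vhl. Of the 8 genes tested, 5 to 7 were then lower and 0 higher. The count of 7 came without oe-NC sample 1, where 20.7% of all genes were called lower. Vegfa lost its call without oe-AQP1 sample 2 (-0.28), and Hif1a gained one with sample quality weights (-0.0817, FDR = 0.0489) and without oe-NC sample 1 (-0.0901). Vhl changed sign without oe-NC sample 1 (-0.0029).

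Requiring 10 counts in every sample left 482 genes past both thresholds, against 812. That filter drops any gene with fewer counts in any sample. Among these are genes with few counts in a single group, such as Il6 in oe-NC. Left-out samples gave 765 to 891, and 3601 to 6456 past the FDR alone. Pathway genes that fell numbered 35 to 41 (30 to 34 without the listed genes), and those that rose 2 to 7, with 3 under DESeq2 and 3 without a filter, where the cause was not tested. Signs near 0 turned for Egln2 with edgeR's test (-0.0008), DESeq2 (-0.0017) and no filter (-0.0145), and with samples left out (-0.0433 to 0.0791). They turned for Rbx1 by library size only (0.0123), with the filter at 10 counts (0.0083) and with samples left out (-0.0674 to 0.0449), and for Siah2 with quality weights (0.01) and with samples left out (-0.075 to 0.0233). Over the tested named genes, 472 values kept sign and call, 18 lost the call, 7 gained it and 14 changed sign.

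With the sample number as a replicate block, 786 genes passed both thresholds, 6 of the listed genes and 37 pathway genes were lower and 4 higher. Among named genes the block ended the call of Siah1a (0.22, FDR = 0.0503) and changed no other. Deviations of same-numbered samples correlated at 0.01, -0.00 and -0.07. With so few samples per group, these values cannot decide whether same-numbered samples were handled together.

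With the longest transcript as length, oe-NC levels were 742.5 TPM for Ndrg1, 136.3 for Hif1a, 126.5 for Bnip3, 65.24 for Slc2a1, 38.6 for Vhl, 10.54 for Ankrd37 and 0.4587 for Egln3. Depth limits Egln3, Epas1 and Ankrd37, and 3 samples a group cannot reach an exact permutation p under 0.1.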

Other observations

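Some hypoxia pathway genes had too few counts for the filter, and their values were looked at after the fit. Ak4, a mitochondrial adenylate kinase and HIF target, had 8, 14 and 17 counts in oe-AQP1 samples and 2, 1 and 4 in oe-NC samples. Pgf, a placental relative of Vegfa, had 2 counts in each oe-AQP1 sample and 6, 7 and 10 in the oe-NC samples. The groups did not overlap for either gene, with Ak4 above and Pgf below the oe-NC samples. Without a low-count filter Ak4 was called higher (log2FC = 2.22, FDR = 0.0132) and Pgf lower (-1.78, FDR = 0.0370), and Ak4 was also called higher in each of the 4 fits with a sample left out that kept it (FDR up to 0.0341). Kdr, a VEGF receptor gene, Epo, the erythropoietin gene, Tgfa, Stc2, Trf and Plod2 had 0 counts in every sample, which allows up to 0.164 CPM in the shallowest library.

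Some epithelial genes were lower beside the HIF targets, in a fit where 16.6% of all genes tested were called lower. Cdh16, a cadherin of kidney tubules, fell from 180, 165 and 162 CPM in oe-NC to 110.1, 109.6 and 108.9 CPM in oe-AQP1 (log2FC = -0.63, FDR = 4.63e-06, limma-voom). The keratin genes Krt8 and Krt18 had log2FC = -0.41 (FDR = 6.43e-05) and -0.27 (FDR = 5.67e-04), and Cdh1, which encodes E-cadherin, fell from 77, 67 and 78 counts to 38, 50 and 40 (log2FC = -0.86, FDR = 0.00173). Pax8 and Pax2, transcription factors of the renal lineage, did not pass (log2FC = -0.07 and 0.25).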
